A study of Mus musculus with 22 samples.

Results

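Resting cells and cells after 6 h of E2F1 induction were compared in NIH/3T3, an established line of mouse embryonic fibroblasts. The comparison used 4 of the 22 RNA libraries of the series, chosen by the line and time in their labels: 2 libraries of the E2F1 line at 0 h and 2 after 6 h of doxycycline. All 11208 genes of the deposited table were followed. Cells of the E2F1 line carry an integrated construct from which doxycycline switches on E2F1, and cells of the EV line carry the empty vector. Both lines were first starved for 48 h in 0.25% serum. The 0 h groups were taken at that point without doxycycline, and the 6 h groups after 6 h with 500 ng/ml of it. The EV line at 0 h and 6 h, with 2 libraries each, served as the background of drug, vector and time. The labels do not say whether a line was a clone or a pool, nor from which species the E2F1 insert came. Nothing in them says that replicates were separate cultures, so p-values measure only the spread between libraries. That spread was pooled within all 11 groups of the 22 libraries, including those at 2 h and 12 h and those given serum.

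E2F1 is a transcription factor that binds DNA together with a DP partner. In resting cells the pocket proteins RB1, p107 and p130 hold E2F factors and their target genes silent, p130 as part of the DREAM complex with the MuvB proteins. When cells enter the cycle, cyclin-dependent kinases phosphorylate the pocket proteins, and E2F factors then switch on genes for cyclin E, for the enzymes of DNA synthesis and for the copying of chromatin. E2F1 is also known for targets that promote cell death. Genes of the resting state are in part driven by FOXO factors, which growth factor signalling keeps out of the nucleus.

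The values are normalized counts, that is, read counts scaled between libraries and rounded to whole numbers by the authors. They are not per gene length, so levels are compared between libraries and not between genes. Totals were 34043429 and 34201309 in the E2F1 line at 0 h and 37401882 and 36606142 at 6 h, and from 34680926 to 35600629 in the 4 EV libraries. An estimate of the reads behind them was possible for 6 of these 8 libraries and ran from 32200000 to 43100000. Replicates of the E2F1 line differed by a median of 0.12 on the log2 scale at both times. The counting noise was 0.04 when the normalized counts were taken as if they were reads. The lowest mean of any gene over the 22 libraries was 99.6, so rare transcripts were not analysed here. A gene far below this at rest is present only through groups where it is higher. Large rises from low counts therefore depend in part on how genes entered the table. All 11 fibroblast markers looked for were present, while 0 of 12 epithelial, 0 of 5 endothelial, 0 of 6 muscle and 0 of 5 adipocyte markers were. The table held 1 of 8 immune markers (Csf1r) and 3 of 7 neural markers (Tubb3, Nes and Map2). The lines were not alike at rest: Ddx3y, a Y-linked gene, was at 580 and 521 in the E2F1 line at 0 h but at 9 and 4 in the EV line. At 6 h it was at 415 and 435 against 31 and 18, not called in either line (adjusted p 0.459 and 0.165), but with a difference between the changes of -2.17 (adjusted p 0.00658). Whether libraries hold some RNA of the other line cannot be told from the files. Its part in the differences between the lines was not tested.

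After 6 h of doxycycline, 5799 of the 11208 genes of the E2F1 line (51.7%) differed from rest at an adjusted p under 0.05 by limma, the rule for a call throughout. Of these 3230 were higher (28.8% of all genes) and 2569 lower (22.9%). Large changes were mostly rises: 968 genes (8.64%) were called and at least 2-fold higher, against 147 (1.31%) at least 2-fold lower. At 4-fold the counts were 181 and 1, and 29 genes were at least 8-fold higher. Changes are on the log2 scale of the normalized count plus 1, and the median over all genes was -0.03. In 8761 genes (78.2%) the libraries of the 2 times did not overlap. All 968 and all 147 genes called at least 2-fold were among them. For such genes, absence of overlap given below adds nothing to the call. In bulk RNA, a change in how many cells express a gene cannot be told apart from a change per cell.

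The balance of the smaller changes depended on the scaling. With every library set to the same total the median of all genes moved by -0.12, and under quantile normalization by -0.11. The calls then split into 2683 higher and 3781 lower, and into 2657 higher and 3820 lower. At least 2-fold, rises still led by 779 to 281 and by 848 to 212. A set of 2465 higher and 2493 lower calls held under all 3 scalings. For many gene groups with medians near that of all genes, counts under the other scalings are given below. A group's count is to be read against the 28.8% of all genes called higher and the 22.9% called lower.

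**Figure D1:**
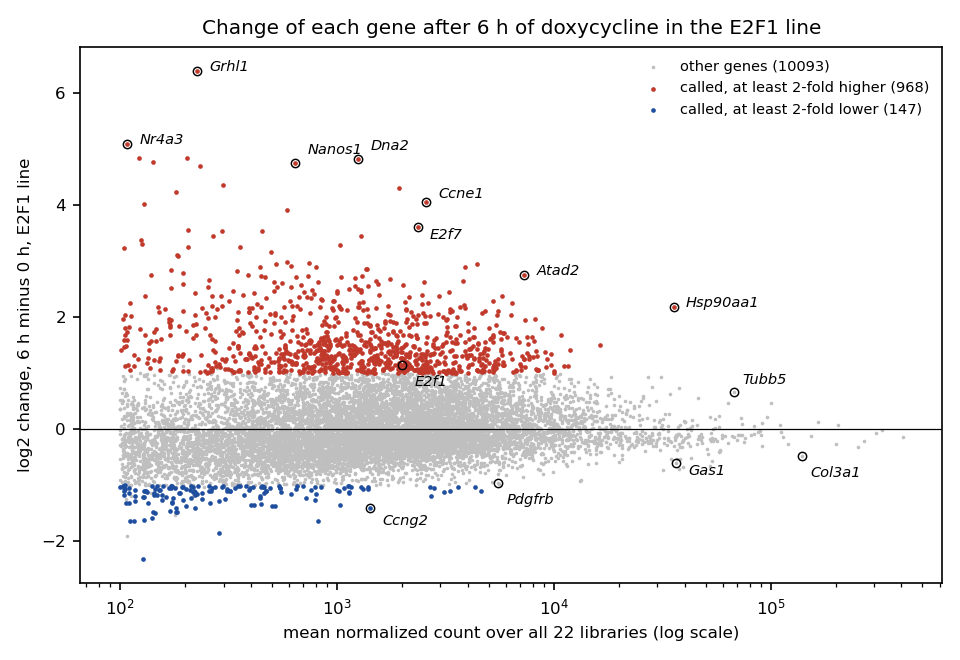
Each point is a gene of the table; the x axis is its mean normalized count over all 22 libraries (log scale) and the y axis its log2 change between 0 h and 6 h in the E2F1 line (2 libraries each). Red points are the 968 genes called and at least 2-fold higher, blue points the 147 called and at least 2-fold lower, and circles mark named genes, with Grhl1 highest at 6.39.

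E2f1 itself rose. Its normalized counts were 1703 and 1637 at 0 h and 3806 and 3602 at 6 h, so both 6 h libraries lay above both resting ones. The change was 1.15 on the log2 scale (SE 0.11, adjusted p 9.61e-08), or 2.22-fold. In the EV line E2f1 went from 1635 and 1655 to 1426 and 1506, and the lines differed in their change by 1.32 (adjusted p 3.38e-06). Whether reads of the insert are counted under the mouse gene was not tested.

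The factors that work beside or against E2F1 rose with it. The table held 9 E2F and DP genes, of which 7 were called higher and 0 lower, with a median log2 change of 1.15, and leaving out any of the 4 libraries gave the same counts. Quantile normalization added 1 lower call. E2f7 and E2f8, the atypical members that repress E2F targets, were among the strongest. E2f7 (chr10:110745439-110787384 in GRCm38) stood at 873 and 700 at 0 h and at 10316 and 8937 at 6 h, a rise of 3.62 in log2 (SE 0.21, adjusted p 2.11e-10). E2f8 went from 576 and 508 to 3505 and 2880 (2.55, adjusted p 1.41e-06). The activator E2f2 rose from 83 and 109 to 1068 and 1037 (3.45, SE 0.46, adjusted p 6.36e-06), and no 6 h library of the 3 genes overlapped a 0 h library. E2f3, a further activator, rose less, by 0.81 (adjusted p 7.77e-06), and Tfdp2, which encodes a DP partner, by 1.51 (adjusted p 7.29e-10).

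Among 10 pocket protein and MuvB genes 7 were called higher and 1 lower, with a median of 0.98. Rb1 (chr14:73183673-73325822) was at 514 and 478 at rest and at 2642 and 2296 after 6 h, a rise of 2.31 (SE 0.16, adjusted p 1.41e-09). Rbl1, which encodes p107, rose from 996 and 1049 to 2167 and 2115 (1.07, adjusted p 0.000222). The exception was Rbl2, the gene of p130, the pocket protein typical of rest: it fell from 1440 and 1436 to 1066 and 1047 (-0.44, adjusted p 0.00558). Of the MuvB genes Lin54 rose by 2.15 (adjusted p 1.89e-08) and Lin9 by 1.47 (adjusted p 4.57e-05). Mybl2, whose product joins MuvB in cycling cells, rose from 470 and 507 to 3290 and 3080 (2.70, adjusted p 1.03e-07). With equal totals 2 members were lower.

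Cyclin E stood out among the genes of the G1 engine. Ccne1 (chr7:38097984-38107534) went from 666 and 544 to 10461 and 9521, a log2 change of 4.05 (SE 0.22, adjusted p 7.81e-11) or 16.6-fold. Ccne2, whose exons overlap those of Ints8, went from 546 and 361 to 9083 and 8538 (4.31, SE 0.25, adjusted p 1.94e-10). In both genes the 6 h libraries lay far above those at rest and those of the EV line. Of the 14 G1 cyclin and kinase genes 8 were called higher and 2 lower, with a median of 0.29. Skp2, the substrate receptor of a ubiquitin ligase for p27, rose by 1.89 (adjusted p 5.46e-10), Cdc25a, a phosphatase that activates CDK2, by 1.45 (adjusted p 1.53e-08), and Cdk7 fell by 0.60 on the log2 scale (adjusted p 0.000157). Ccnd1, the cyclin D1 gene that growth factors induce, was at 2064 and 2124 against 1549 and 1349 and did not pass the test (-0.53, adjusted p 0.069). It was called lower with equal totals (adjusted p 0.0314), under quantile normalization (0.0179), without the 2 h groups (0.0489) and with only the groups compared (0.00147). Both other scalings and the fit without the 2 h groups gave 6 higher calls, with 3 or 4 lower ones. The second lower call, Mnat1 (-0.41, adjusted p 0.00423), was lost without E2F1 6 h replicate 1 or 0 h replicate 2 (adjusted p 0.0775 and 0.0791).

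The brakes on these kinases rose too: all 4 CDK inhibitor genes present, of 7 looked for, were called higher. Cdkn1a, the gene of p21 and a target of p53, went from 3066 and 2954 to 13789 and 12293 (2.11, SE 0.10, adjusted p 2.47e-11). Cdkn2c, the gene of p18, went from 5456 and 5039 to 15715 and 15469 (1.57, adjusted p 7.81e-11). Cdkn1b, the gene of p27, went from 4616 and 5098 to 8935 and 9807 (0.95, adjusted p 2.61e-07). Their 0 h and 6 h libraries did not overlap. For Cdkn2d the change was 0.94 (adjusted p 0.00812). Its call was lost without E2F1 6 h replicate 1 (adjusted p 0.0642) or without E2F1 0 h replicate 2 (adjusted p 0.0534).

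**Figure D2:**
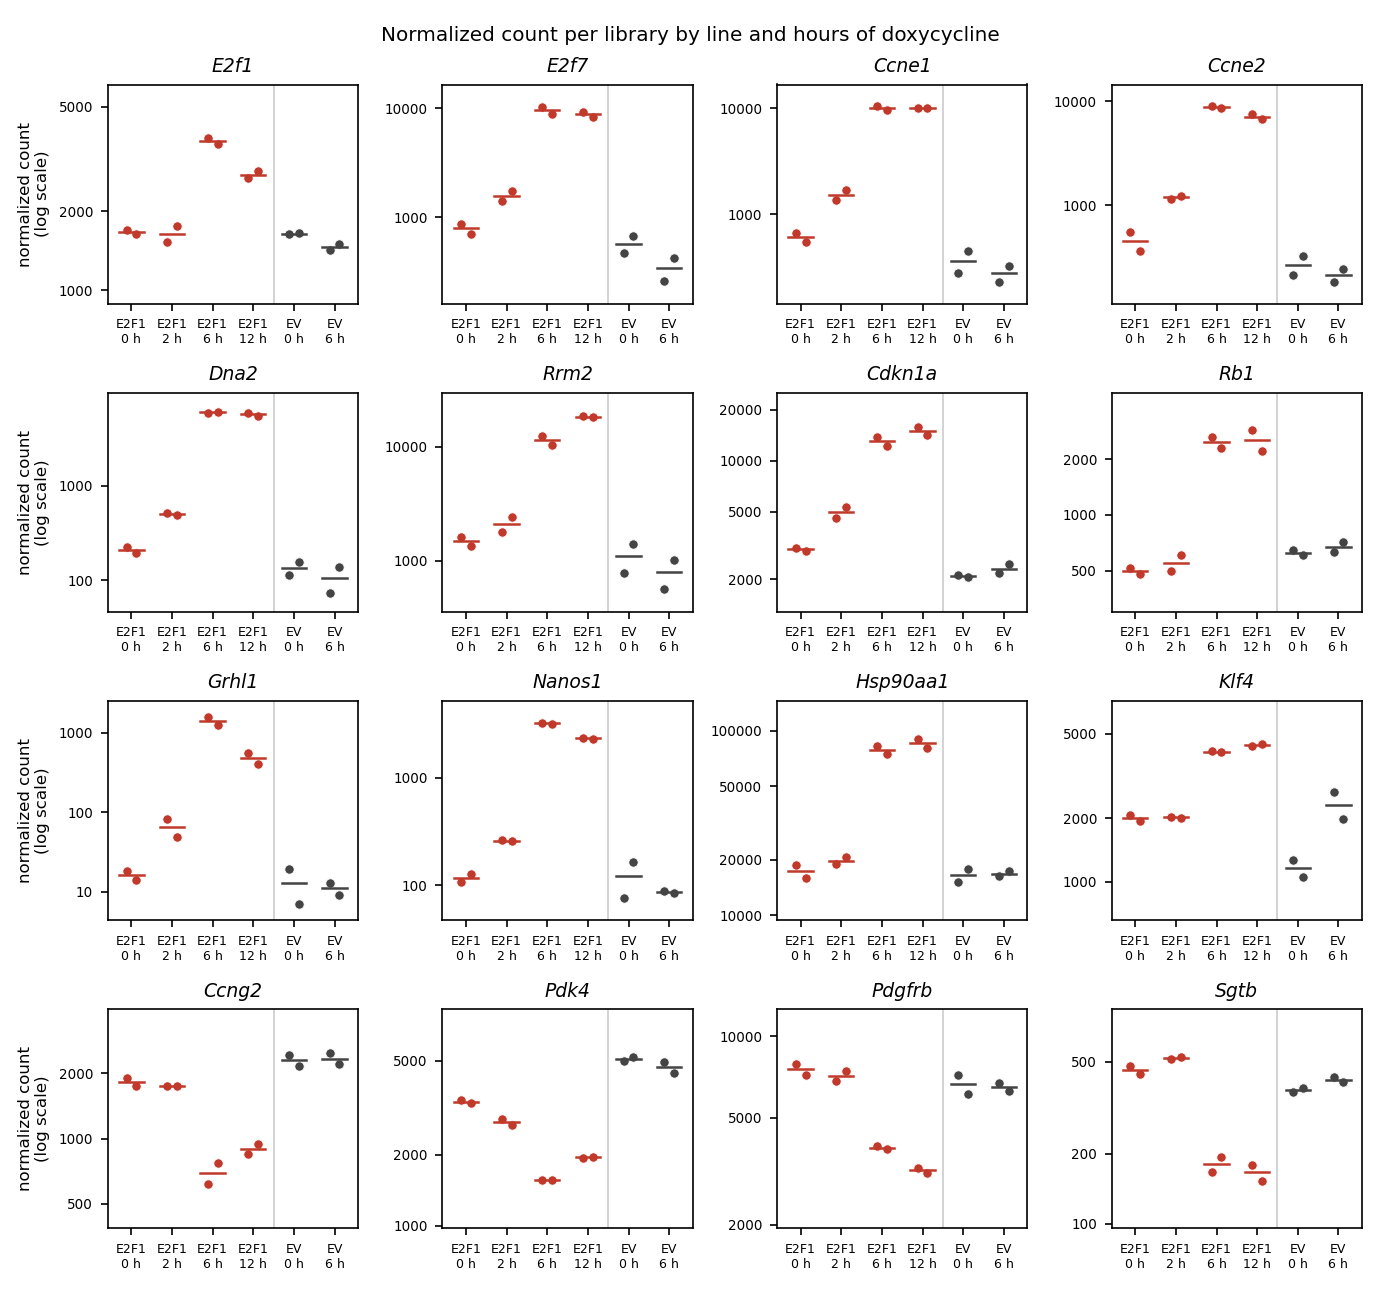
Normalized counts (y axis, log scale) of 16 named genes in each library: E2F1 line after 0, 2, 6 and 12 h of doxycycline in red, EV line after 0 and 6 h in grey; points are libraries and bars the mean of 2. Ccne1, Ccne2, E2f7 and Dna2 lie far above rest at 6 h in the E2F1 line only among the groups drawn, Klf4 is higher at 6 h in both lines, and Ccng2, Pdk4, Pdgfrb and Sgtb are lower at 6 h in the E2F1 line.

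Genes for starting and running DNA replication rose nearly throughout. Of 28 genes of origin licensing and the MCM helicase 24 were called higher and 0 lower, with a median of 1.11, and 24 of them also rose more than in the EV line. Cdc6, a loader of the helicase, went from 609 and 538 to 2358 and 2254 (2.01, SE 0.21, adjusted p 3.78e-07). Dbf4, the activator of the CDC7 kinase that fires origins, went from 1117 and 1027 to 3909 and 3146 (1.71, adjusted p 7.79e-06). Gmnn, the gene of geminin, which blocks a second licensing, rose with them (1.66, adjusted p 2.96e-05). Donson, needed at active origins, rose by 2.07 (adjusted p 7.8e-07), with exons that overlap Son and Atp5o. The members not called were Orc3, Orc4, Orc5 and Recql4; these were named after their values were seen.

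At the fork 31 of 35 genes were called higher and 2 lower, with a median of 1.04. Dna2 (chr10:62947026-62974185), the nuclease and helicase that trims Okazaki flaps and broken ends, changed most: 224 and 193 at 0 h against 5898 and 5978 at 6 h, 28.4-fold (log2 4.83, SE 0.32, adjusted p 7.9e-10). Wdhd1, which ties polymerase alpha to the helicase, went from 695 and 644 to 4556 and 4425 (2.74, adjusted p 6.72e-09). Pcna, the sliding clamp, went from 3794 and 3458 to 15075 and 14869 (2.05, adjusted p 8.06e-09), and has named pseudogenes that may share its reads. In all 3 genes the 6 h libraries were far above both resting ones. The 2 lower calls were Pold4 (-0.56, adjusted p 0.0134) and Top1 (-0.27, adjusted p 0.0135), and each was lost when single libraries were left out: Pold4 without E2F1 6 h replicate 1 or 0 h replicate 1 (adjusted p 0.0949 and 0.063), and also under quantile normalization and with only the groups compared (0.0511 and 0.0547), Top1 without 6 h replicate 2 or 0 h replicate 1 (adjusted p 0.0637 and 0.0738).

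Supply of deoxynucleotides followed the same direction, with 10 of 15 genes higher, 2 lower and a median of 1.02. Rrm2, the S phase subunit of ribonucleotide reductase, went from 1617 and 1341 to 12582 and 10444 (2.96, SE 0.24, adjusted p 1.52e-08). Dck, the kinase that salvages deoxycytidine, went from 769 and 815 to 5103 and 4523 (2.60, adjusted p 4.37e-10). Tyms, thymidylate synthase, rose by 1.66 (adjusted p 3.35e-07). Rrm2b, the subunit used outside S phase and in DNA damage, moved the other way, from 616 and 694 to 484 and 423 (-0.53, adjusted p 0.000817). The other lower call, the mitochondrial kinase gene Tk2 (-0.46, adjusted p 0.0079), was lost without E2F1 6 h replicate 1 or 0 h replicate 1 (adjusted p 0.11 and 0.0613). Of 23 genes of purine, pyrimidine and one-carbon synthesis 10 were called higher and 1 lower, beside 28.8% and 22.9% of all genes. The median of these 23 genes, 0.17, became 0.05 with equal totals and -0.04 under quantile normalization. The lower call, Impdh1 (-0.24, adjusted p 0.0418), was lost with any of the 4 libraries left out.

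DNA repair genes rose in large part. Of 34 genes of homologous recombination and the Fanconi pathway 21 were called higher and 0 lower (median 0.78), and of 13 mismatch and uracil repair genes 8 were higher and 0 lower (median 0.61). Fancm, a DNA translocase at stalled forks, went from 636 and 631 to 3875 and 3353 (2.51, SE 0.13, adjusted p 3.71e-11). Ung, which removes uracil from DNA, went from 260 and 197 to 1303 and 1153 (2.43, adjusted p 5.21e-06). Ube2t, the conjugating enzyme of the Fanconi pathway, rose by 2.40 (adjusted p 1.35e-06) and Brca1 by 1.91 (adjusted p 8.61e-06). Among 13 genes of the replication checkpoint 9 were called higher and 0 lower (median 0.61). Clspn, the gene of claspin, which brings CHK1 to its activator ATR, went from 1428 and 1244 to 6838 and 5743 (2.23, adjusted p 3.64e-07), and Wee1, a kinase that restrains CDK1, rose by 1.56 (adjusted p 7.22e-09).

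All 18 genes for assembling and maintaining chromatin were called higher, from 0.74 for Asf1a to 1.91 for Ezh2, and 15 of them at least 2-fold. The same 18 rose more than in the EV line, where their median was -0.29. Ezh2 and Suz12 encode parts of Polycomb complex PRC2, which methylates histone H3. Ezh2 went from 1585 and 1569 to 6192 and 5639 (SE 0.10, adjusted p 5.71e-11) and Suz12 from 2715 and 2610 to 9009 and 8091 (1.68, adjusted p 1.36e-10). Chaf1b, a subunit of the factor that places histones behind the fork, went from 656 and 630 to 2302 and 2013 (1.74, adjusted p 1.01e-05). Uhrf1, which guides DNA methylation to new strands, rose by 1.72 (adjusted p 3.05e-05). Leaving out E2F1 0 h replicate 2 gave 17 higher calls, and each of the other 3 libraries 18. The table held 2 replication-dependent histone genes, whose main messages end without a poly(A) tail, and both were lower: Hist2h2be by 1.21 on the log2 scale (adjusted p 0.00418) and Hist1h1c at -0.96 (adjusted p 0.0355), the latter not called without the 2 h groups (adjusted p 0.0519). In the EV line Hist1h1c changed by -0.62, and the difference between the lines was not called (-0.33, adjusted p 0.648). Libraries were made from polyadenylated RNA, whose part in these values was not tested. The call of Hist1h1c was also lost without E2F1 6 h replicate 1 (adjusted p 0.133), 6 h replicate 2 (adjusted p 0.082) or 0 h replicate 1 (adjusted p 0.218).

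The start regions of some of these genes hold the letters known as an E2F site, and are shown because their genes rose together. The search was for TTTCGCGC or TTTGGCGC on either strand, from 250 bases before to 50 after the start in the RefSeq table for GRCm38; these strings share all letters but the fourth, and no other motif was searched. Of all 32851 such windows 0.813% hold them. A window was available for 157 of the 197 named genes, and 8 of these hold the letters: Rbl1, Cdc25a, Topbp1, Clspn, Ezh2, Uhrf1, E2f2 and Cox5a. This coverage, too, is under the 80% asked for, and no share over the genes analysed is given. The 8 are therefore only listed, and not compared with the share over all windows. Among the 18 chromatin genes 17 had a window and 3 hold the letters (Dnmt1, Ezh2 and Uhrf1). For all genes that rose at least 2-fold the share is not given, since only 79.5% of them had a window, under the 80% asked for. The stretches below run from 150 bases before to 30 after the start, 5′ to 3′ on the strand of the gene, with the matching letters in capitals. Rbl1 is on the minus strand at chr2:157204505-157204684, Cdc25a on the plus strand at chr9:109875429-109875608, Topbp1 on plus at chr9:103305177-103305356, Clspn on plus at chr4:126556830-126557009, Ezh2 on minus at chr6:47595001-47595180 and Ccne1 on minus at chr7:38107461-38107640.
Rbl1: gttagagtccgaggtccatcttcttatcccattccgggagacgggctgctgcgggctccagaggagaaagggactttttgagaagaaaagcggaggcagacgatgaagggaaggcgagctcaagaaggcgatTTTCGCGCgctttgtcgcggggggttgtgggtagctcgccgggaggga
Cdc25a: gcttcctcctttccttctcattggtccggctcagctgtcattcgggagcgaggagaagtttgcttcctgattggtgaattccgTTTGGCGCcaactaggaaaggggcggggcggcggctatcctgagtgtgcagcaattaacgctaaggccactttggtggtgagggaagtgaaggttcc
Topbp1: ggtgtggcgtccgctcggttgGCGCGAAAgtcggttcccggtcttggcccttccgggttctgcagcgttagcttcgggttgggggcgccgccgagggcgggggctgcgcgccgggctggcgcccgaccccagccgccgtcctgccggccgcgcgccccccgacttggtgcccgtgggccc
Clspn: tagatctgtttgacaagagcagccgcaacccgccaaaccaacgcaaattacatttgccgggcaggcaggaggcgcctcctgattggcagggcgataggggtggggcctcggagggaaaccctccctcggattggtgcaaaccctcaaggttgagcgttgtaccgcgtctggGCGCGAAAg
Ezh2: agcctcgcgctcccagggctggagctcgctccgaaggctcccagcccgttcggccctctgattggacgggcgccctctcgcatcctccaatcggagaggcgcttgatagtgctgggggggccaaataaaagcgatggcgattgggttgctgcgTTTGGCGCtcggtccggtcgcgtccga
Ccne1: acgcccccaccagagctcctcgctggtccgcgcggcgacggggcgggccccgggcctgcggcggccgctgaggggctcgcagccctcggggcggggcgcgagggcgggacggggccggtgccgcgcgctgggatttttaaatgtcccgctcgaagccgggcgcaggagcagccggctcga
The first matching base lies at -18 in Rbl1, -67 in Cdc25a, -129 in Topbp1, 22 in Clspn and 4 in Ezh2, counted from the start as 1. Ccne1 is shown as a gene with a larger rise whose window holds none of these letters. Neither do the windows of Dna2, E2f7, Nanos1 and Grhl1. A match describes the letters only, and binding was not measured here.

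Of 43 genes of mitotic entry and the spindle 17 were called higher and 0 lower, with a median of 0.57, and their median in the EV line was -0.35. Ccnf, a cyclin that acts in a ubiquitin ligase, went from 1428 and 1365 to 7835 and 6808 (2.39, SE 0.29, adjusted p 2.05e-06), and the condensin gene Ncaph from 1024 and 1008 to 3935 and 3681 (1.90, adjusted p 8.16e-06). Mki67, the proliferation marker, went from 7889 and 8476 to 23998 and 20072 (1.42, adjusted p 0.00109). Their resting and 6 h libraries did not overlap. Ccna2, the gene of cyclin A2, rose by 1.04 (adjusted p 0.014), but was not called without E2F1 6 h replicate 1 or 0 h replicate 2 (adjusted p 0.106 and 0.0802). Ccnb2, Ube2c and Cdc25c were at -0.04, -0.01 and -0.01 and Ccnb1 at 0.27, none of them called; these 4 were chosen after their values were seen. The count fell to 12 with equal totals, 9 under quantile normalization and 13 without the 2 h groups. It was 6 without E2F1 6 h replicate 1, 13 without 6 h replicate 2, 10 without 0 h replicate 1 and 7 without 0 h replicate 2.

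**Figure D3:**
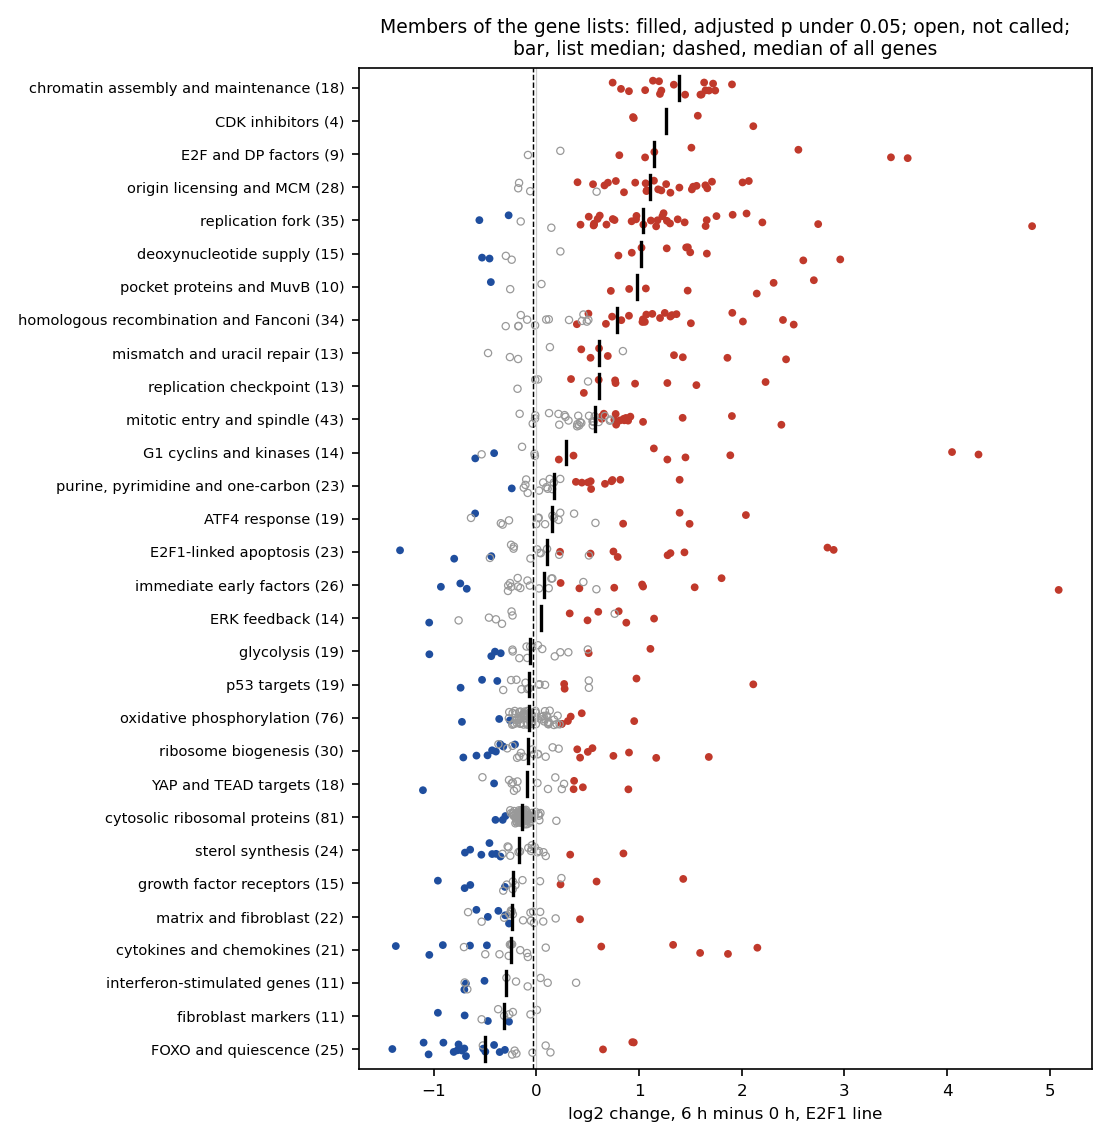
Log2 change between 0 h and 6 h in the E2F1 line (x axis) for the members of each gene list with at least 4 genes in the table (rows, number of genes in brackets), ordered by median. Filled points are called (red higher, blue lower), open points are not, bars are list medians and the dashed line is the median of all genes at -0.03; chromatin assembly stands highest at 1.39 and the FOXO and quiescence genes lowest at -0.50.

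Several of the largest rises were in genes on none of the replication lists. Grhl1 (chr12:24572283-24617391), a grainyhead transcription factor known from epithelia, was at 18 and 14 at rest and at 1573 and 1270 after 6 h, 83.8-fold (log2 6.39, SE 0.68, adjusted p 3.56e-07). In the EV line it stayed at 19 and 7 against 13 and 9, while Grhl2 and Grhl3, on the epithelial marker list, were not analysed here. Nanos1 (chr19:60755987-60759914), an RNA-binding repressor of translation, went from 108 and 127 to 3235 and 3164 (4.76, SE 0.29, adjusted p 3.38e-10). The times did not overlap in either gene, as the naming rule required. At rest Grhl1 lay far below 99.6, the lowest mean of any gene. It is therefore in the table only through groups where it is higher.

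Others of the 20 largest rises encode membrane and signalling proteins. Nxph3, a neurexophilin that binds neurexins, went from 21 and 20 to 615 and 621 (4.85, adjusted p 2.64e-07). Neurl1b, a ubiquitin ligase of Notch ligands, went from 10 and 18 to 472 and 362 (4.84, SE 0.83, adjusted p 9.2e-05), and the receptor phosphatase gene Ptpru from 18 and 15 to 541 and 417 (4.77, SE 0.93, adjusted p 0.000352). With so few counts at rest the size of these folds is imprecise. Each of these genes is in the table only through groups where it is higher. No library of one time overlapped the other, as the naming rule required. Tnfrsf21, the gene of death receptor 6, rose from 106 and 136 to 2238 and 1472 (3.91, adjusted p 1.29e-09). Tigar, a phosphatase that lowers glycolytic flux and a known p53 target, rose from 98 and 91 to 1244 and 994 (3.54, adjusted p 4.13e-10). Lrrc8b, a subunit of volume-regulated anion channels, rose from 619 and 446 to 6094 and 5393 (3.45, adjusted p 4.47e-09). The other members of the 20 by the naming rule had changes from 3.55 to 4.70 and included Slc35g1, Skida1, Dennd5b, Eepd1 and Rhpn2.

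Ranked by difference in normalized count, which favours long and abundant messages, the 6 largest rises were those of Hsp90aa1, Tubb5, Fasn, Atad2, Ptma and Atp2a2. Hsp90aa1 (chr12:110690605-110702728), the inducible HSP90 chaperone, went from 18858 and 15871 to 83181 and 74992 (2.19, SE 0.11, adjusted p 2.65e-11), and in the EV line from 15090 and 17868 to 16337 and 17350. Atad2, a bromodomain ATPase and known E2F partner, went from 3844 and 3248 to 25924 and 22213 (2.76, adjusted p 4.89e-09). Fasn, fatty acid synthase, went from 26539 and 25594 to 53017 and 46468 (0.93, adjusted p 3.45e-07). Atp2a2, the calcium pump of the endoplasmic reticulum, rose by 1.50 (adjusted p 6.99e-08). For all 4 the 6 h libraries lay above both resting libraries, as the naming rule required.

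Death genes tied to E2F1 were called about as often as all genes. Of 26 looked for, 23 were in the table, 9 called higher and 3 lower (52.2% called, against 51.7% of all genes), with a median of 0.10 that became -0.01 with equal totals; 5 were lower under either other scaling. Map3k5, the gene of the stress kinase ASK1, went from 78 and 95 to 690 and 558 (2.84, adjusted p 1.26e-07). Bcl2, which protects from death, rose beside it from 428 and 544 to 1375 and 1253 (1.44, adjusted p 1.39e-05). Both had 6 h libraries above those at rest. Casp6 fell by 0.80 on the log2 scale (adjusted p 0.000113), and Apaf1, the apoptosome scaffold, was at 1568 and 1532 against 1664 and 1530, not called (0.04, adjusted p 0.759). Trp53, the gene of p53, went from 5809 and 5501 to 8418 and 7882 (0.53, adjusted p 3.25e-05). Trp73 was not analysed here. Among 19 p53 targets present 4 were called higher and 3 lower, with a median of -0.07, and 2 higher and 5 to 7 lower under the other scalings. The rise of Cdkn1a above is on that list, while Ccng1 went from 7864 and 8250 to 5947 and 6426 (-0.38, adjusted p 0.00531; 0.0556 without E2F1 6 h replicate 1). The count of higher p53 targets was 1 without E2F1 6 h replicate 1 or 0 h replicate 2, and that of lower ones 1 without 6 h replicate 1 and 2 without 6 h or 0 h replicate 2.

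Immediate early factors are switched on by serum within minutes. The table held 26 of them, of which 8 were called higher and 3 lower, and the median of 0.07 turned to -0.04 with equal totals and -0.13 under quantile normalization, with 6 lower calls in each. Nr4a3, an orphan nuclear receptor, rose from 17 and 4 to 398 and 260 (5.09, SE 0.61, adjusted p 1.57e-06). At rest Nr4a3 lay far below 99.6, the lowest mean of any gene. It is therefore in the table only through groups where it is higher, and the size of its fold is imprecise. Klf10, a TGF-beta early gene, went from 940 and 980 to 3427 and 3280 (1.80, adjusted p 3.42e-07). Fos was low, at 128 and 70 against 312 and 247 (1.54, adjusted p 0.00772), and lost its call without E2F1 6 h replicate 1 or 0 h replicate 2 (adjusted p 0.062 and 0.106). Myc stood at 2399 and 2434 at rest and at 2791 and 2166 at 6 h, with overlapping libraries and a change of 0.03 (adjusted p 0.901). Klf6 fell from 4412 and 5614 to 3414 and 2829 (-0.68, adjusted p 0.000142). The count of higher members was 4 without E2F1 6 h replicate 1.

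Among secreted factors and their receptors the share called was no higher than among all genes. Of 21 cytokine and growth factor genes 5 were called higher and 5 lower (47.6% called, against 51.7% of all genes), and 8 lower under either other scaling. Pdgfa, a ligand of PDGF receptors, went from 552 and 513 to 1975 and 1910 (1.87, SE 0.12, adjusted p 3.73e-10), and Hbegf, an EGF receptor ligand, from 653 and 546 to 2088 and 1561 (1.59, adjusted p 2.77e-07). Tgfb1 rose from 1161 and 819 to 2686 and 2245 (1.33, adjusted p 7.68e-07). By contrast Tgfb3 fell from 2392 and 2245 to 1142 and 1105 (-1.04, adjusted p 6.63e-07). Tgfb2 went from 337 and 298 to 89 and 167 (-1.37, adjusted p 0.00118). So within the TGF-beta ligands 1 gene rose and 2 fell, with no overlap between the times in any of them. Without E2F1 6 h replicate 1 the higher calls numbered 3, and without 0 h replicate 1 the lower ones 3. Of 15 growth factor receptor genes 3 were called higher and 4 lower (46.7% called), and 2 higher and 9 or 8 lower under equal totals and quantile normalization. Tgfbr1 rose from 1732 and 1812 to 5051 and 4515 (1.43, adjusted p 3.29e-08), while Pdgfrb fell from 7869 and 7204 to 3910 and 3828 (-0.96, SE 0.10, adjusted p 5.2e-07). Pdgfra, a marker of fibroblasts, went from 46438 and 50638 to 26870 and 33178 (-0.70, adjusted p 0.00599), and was not called without E2F1 6 h replicate 1 (adjusted p 0.0771).

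Feedback genes of ERK signalling gave 6 higher and 1 lower call of 14, and 4 higher and 3 lower under either other scaling. Dusp7, an ERK phosphatase, rose by 1.15 (adjusted p 4.9e-07) and Spred1 by 0.60 (adjusted p 1.76e-05), while Spred3 fell by 1.05 on the log2 scale (adjusted p 1.57e-05). Without E2F1 6 h replicate 1 there were 2 higher and 4 lower calls, without 0 h replicate 1 there were 3 lower, and without 0 h replicate 2 there were 3 higher. Of 18 YAP and TEAD genes 4 were higher and 2 lower, against 3 higher and 7 lower with equal totals and 2 higher and 7 lower under quantile normalization. Ptpn14, a YAP inhibitor, went from 5861 and 6146 to 11631 and 10721 (0.90, adjusted p 1.32e-07). F3, the gene of tissue factor, fell from 3710 and 5467 to 2252 and 1943 (-1.11, adjusted p 0.000619). Their libraries did not overlap between the times. Lower YAP and TEAD calls numbered 4 without E2F1 6 h replicate 1 and 1 without either replicate 2.

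Among the lists, that of FOXO and quiescence genes held the most lower calls at the deposited scaling. The table held 25 of its genes, of which 15 were called lower and 3 higher, with a median of -0.50 against 0.05 in the EV line, and 13 differed from the EV line downward. Ccng2 (chr5:93267257-93276231), a cyclin G high in resting cells, went from 1896 and 1754 to 617 and 768 (-1.40, SE 0.23, adjusted p 5.55e-05). Pdk4 (chr6:5483351-5496309), which shuts pyruvate off from the citric acid cycle, went from 3396 and 3299 to 1559 and 1564 (-1.10, SE 0.09, adjusted p 1.01e-08). Fbxo32, the ubiquitin ligase atrogin-1, went from 599 and 671 to 302 and 309 (-1.05, adjusted p 1.87e-05). All 3 had 6 h libraries below both at rest, and in the EV line Ccng2 was at 2442 and 2159 against 2470 and 2212. The 3 rises were Cdkn1b, Foxo1 (0.93, adjusted p 1.68e-05) and Klf9 (0.65, adjusted p 0.000412). Falls numbered 17 and 18 under the other scalings and from 10 to 15 with a library left out.

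The largest falls were smaller than the rises and in genes of lower count. Genes at least 2-fold lower had a median of 321.5 normalized counts at 0 h, against 816 for those at least 2-fold higher and 1288 for all genes. Sgtb, a cochaperone, went from 480 and 443 to 168 and 194 (-1.35, SE 0.13, adjusted p 1.1e-07), and differed from the EV line by -1.50 (adjusted p 5.26e-06). Il34, a ligand of the CSF1 receptor, went from 210 and 242 to 74 and 70 (-1.63, adjusted p 0.00232). Cd14, a receptor for bacterial lipid, was at 269 and 174 against 99 and 62 (-1.45, adjusted p 0.00171). Has1, a hyaluronan synthase, went from 169 and 205 to 53 and 82 (-1.48, adjusted p 0.003). In these 4 the groups did not overlap, as the naming rule required. The urea transporter gene Slc14a1 fell from 1073 and 1368 to 352 and 432 (-1.63, adjusted p 8.7e-05), but its change in the EV line was -0.89 and the difference between the lines was not called (-0.74, adjusted p 0.153). Dhtkd1, Sema6c and Aox1 were also among the 15 largest, at -1.49, -1.38 and -1.47; Aox1 lost its call without E2F1 6 h replicate 2 or 0 h replicate 1 (adjusted p 0.112 and 0.0576).

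Among 22 matrix genes 5 were called lower and 1 higher (median -0.24), and the share called, 27.3%, was below the 51.7% of all genes; lower calls were about as frequent as the 22.9% over all genes. Of the 11 fibroblast markers 4 were lower and 0 higher, with 1 lower without E2F1 6 h replicate 1 and 2 without 6 h replicate 2. By difference in count the 6 largest falls were those of Col3a1, Spp1, Vim, Pdgfra, Gas1 and Col6a1. Vim was not called under quantile normalization (-0.15, adjusted p 0.253) or without the 2 h groups (-0.27, adjusted p 0.0702). Vim and Col6a1 also lost their calls without E2F1 6 h replicate 1, 6 h replicate 2 or 0 h replicate 2. Their changes there were -0.23, -0.30 and -0.19 for Vim and -0.27, -0.33 and -0.25 for Col6a1. Gas1, named for its high level in growth arrest, went from 49077 and 52752 to 30360 and 37484 (-0.59, SE 0.13, adjusted p 0.000927), and Spp1, the gene of osteopontin, from 92648 and 70111 to 57647 and 45252 (-0.66, adjusted p 0.000679). Both genes had lower 6 h libraries throughout, as the naming rule required. Col3a1, a fibrillar collagen, was at 152066 and 122877 against 104123 and 93067 (-0.47, adjusted p 0.0455). Its call was lost without E2F1 6 h replicate 1, 6 h replicate 2 or 0 h replicate 1 (adjusted p 0.0763, 0.194 and 0.282). Lower matrix calls numbered 9 with equal totals and 6 under quantile normalization; they were 1 without E2F1 6 h replicate 1 or 0 h replicate 2, and 2 without 6 h replicate 2.

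Of 24 sterol synthesis genes 7 were called lower and 2 higher (median -0.17), with 9 lower under equal totals and 13 under quantile normalization. Mvk, mevalonate kinase, went from 4102 and 3665 to 2462 and 2324 (-0.70, adjusted p 0.000518), and Insig1, which holds back the sterol programme, from 8387 and 6799 to 15214 and 12135 (0.85, adjusted p 0.00019). Lower sterol calls numbered 2 without E2F1 6 h replicate 2 or 0 h replicate 1. Higher ones numbered 1 without 6 h replicate 1 or 0 h replicate 2. In glycolysis 2 of 19 genes were higher and 4 lower (31.6% called, against 51.7% of all genes), with 2 higher and 5 lower under equal totals and 2 higher and 7 lower under quantile normalization. Hk2, a hexokinase, went from 1061 and 636 to 2028 and 1553 (1.11, adjusted p 0.000401). Lower glycolysis calls numbered 2 without either 6 h replicate and 1 without 0 h replicate 1, and higher ones 1 without 6 h replicate 1 or 0 h replicate 2. Of 76 genes of oxidative phosphorylation 6 were higher and 3 lower, but 2 higher and 21 lower with equal totals and 2 higher and 33 lower under quantile normalization. Cycs, the gene of cytochrome c, rose from 1888 and 1578 to 3522 and 3169 (0.95, adjusted p 4.53e-06) and has named pseudogenes. Higher calls of this list numbered 3 without E2F1 6 h replicate 1 and 2 without 6 h replicate 2 or 0 h replicate 2.

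Of 30 genes of ribosome biogenesis 8 were higher and 8 lower, and 14 or 16 lower under the other scalings. Ubtf, the factor that drives ribosomal DNA transcription, went from 7258 and 7573 to 24402 and 23104 (1.68, SE 0.08, adjusted p 2.7e-11), and Nop56, a box C/D core protein, from 6049 and 5303 to 10771 and 10396 (0.90, adjusted p 7.59e-08). Wdr12, a factor of the large subunit, fell from 1080 and 1008 to 653 and 620 (-0.71, adjusted p 0.000116). These groups did not overlap. Of 81 cytosolic ribosomal protein genes 3 were lower and 0 higher, and 42 and 22 lower under equal totals and quantile normalization. Their median of -0.14 became -0.26 and -0.17 under these scalings, where the median of all genes was -0.15 and -0.14.

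The EV line had the drug, the vector and 6 h more in 0.25% serum, but no E2F1 insert. Limma called 15 of 11208 genes there (0.134%), all higher, with 661 at an unadjusted p under 0.05. A fit of the EV groups alone called 1, and without EV 0 h replicate 1 the count was 30. Of the 15, 10 were also called in the E2F1 line in the same direction. Klf4, a reprogramming factor and growth brake, was such a gene: it went from 1268 and 1053 to 2662 and 1974 in the EV line (0.99, adjusted p 0.00454) and from 2077 and 1931 to 4147 and 4086 in the E2F1 line (1.04, adjusted p 1.58e-05). The difference was 0.05 (SE 0.21, adjusted p 0.872). Chac1, a glutathione-degrading ATF4 target, rose in both lines too, by 1.76 and 1.49 (adjusted p 0.0142 and 0.000499). Of 19 ATF4 targets 4 were called higher and 1 lower in the E2F1 line and 2 in the EV line, where the median was 0.38 against 0.16 (-0.04 in the E2F1 line under quantile normalization). Lower calls in the E2F1 line were 2 under either other scaling and without E2F1 6 h replicate 1. Slc7a1, an importer of cationic amino acids, rose more in the E2F1 line (2.04 in that line, difference 1.78, adjusted p 8.05e-06).

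The change in the E2F1 line differed from that in the EV line in 3866 genes (34.5%), 2493 higher (22.2%) and 1373 lower (12.3%). Equal totals gave 2101 higher and 2251 lower, and quantile normalization 2068 and 2583. Nearly all large rises passed this test: 944 of the 968 genes at least 2-fold higher (97.5%), against 84 of the 147 at least 2-fold lower (57.1%). Both shares come from genes chosen by their change in the E2F1 line, which enters the difference, so they describe and do not test it. In 5 of the 968 and 0 of the 147 the EV line was called in the same direction.

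**Figure D4:**
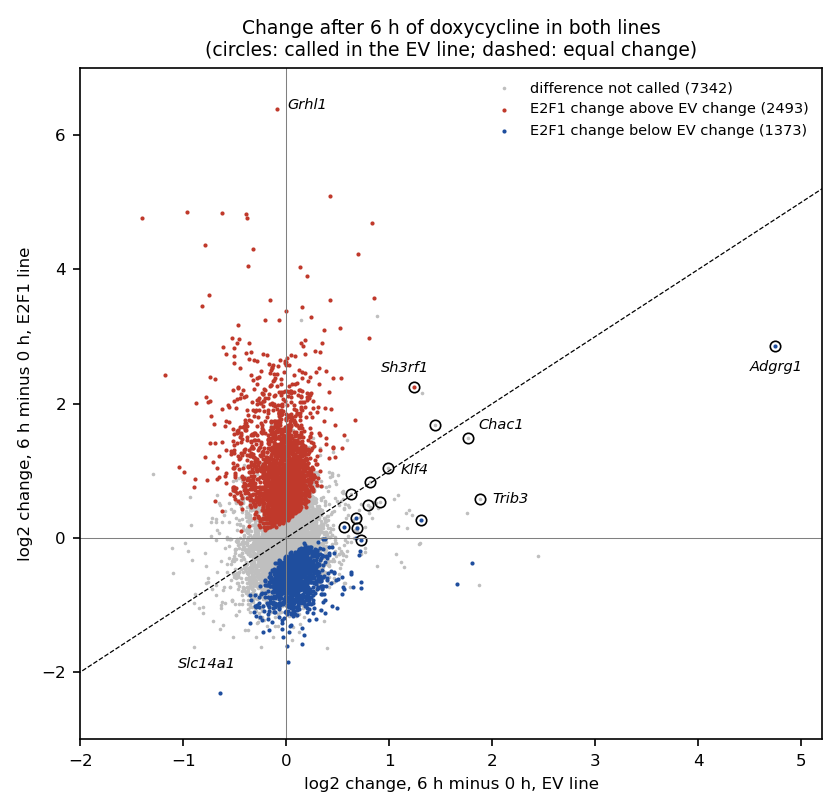
Log2 change between 0 h and 6 h of doxycycline in the EV line (x axis) and in the E2F1 line (y axis) for each gene, 2 libraries per group. Red and blue points are the 2493 and 1373 genes whose change differed upward or downward, circles are the 15 genes called in the EV line, and the dashed line marks equal change; most red points lie above 0 on the y axis and close to 0 on the x axis.

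The authors' deposited table of 6 h against 0 h in the E2F1 line lists 264 genes, 252 higher and 12 lower, each with an absolute log2 change of at least 2. Of these 192 were among the 11208 genes, and all 192 were called here in the same direction. For Ccne1 the authors' deposited table gives a log2 change of 4.08, beside 4.05 here. Of the 182 genes called here with an absolute log2 change of at least 2, 181 are in that table.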

How the data were processed

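RNA of 22 NIH/3T3 libraries was measured, and 8 of them, 2 per group, entered the comparisons described; all 22 entered the fit. Groups and replicate numbers come from the labels. The deposited table holds normalized counts that the authors rounded to whole numbers, handled here as a score and not as raw counts. Per the submitters' processing notes FastQC, Trimmomatic, HISAT2, featureCounts and DESeq2 were used with mm10; their versions, roles and strand setting are not given in the sources used here, so overlapping genes are uncertain. The authors' deposited table of 6 h against 0 h gives log2 changes and adjusted p-values, and only its calls and log2 values were used.

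Log2(value + 1) was modelled with limma 3.58.1 (R 4.3.3; trend), a mean for each of 11 groups and 11 residual degrees of freedom. P-values were adjusted by Benjamini-Hochberg over 11208 genes per comparison, threshold 0.05. A filter of at least 10 in 2 libraries removed no gene. The gene lists and the rules behind them were chosen with earlier results of these data known. Named genes were E2f1, the 20 largest rises and 15 largest falls among calls whose higher group averaged at least 50, with non-overlapping libraries, the 6 largest rises and falls by count and by difference from EV, up to 4 rises and 3 falls per list, and 14 fixed genes. Some genes that this rule names are not reported here. Alternatives were a pseudocount of 8, equal totals, quantile normalization, no filter, a mean of at least 500, a replicate block, only the groups compared, at least 2-fold, and each library left out; leaving out the 6 libraries of the 2 h groups was added after seeing the data, since their Ddx3y, a gene whose level differs between the lines, lies between them. Where a library was left out, the lone one is assumed to vary like the other groups. On simulated data for this comparison, with 11208 genes, 88 of 100 genes changed 2-fold and 100 of 100 changed 4-fold were recovered, with 11 false calls. There only 200 genes were changed, as many up as down, with independent noise and no shift in scaling. The data had far more calls, a median that moved with the scaling and replicates that deviated together. These figures therefore may not hold for the data. Positions are from GENCODE M21 (GRCm38), which matched 10977 identifiers. Promoters are from RefSeq. Python 3.11.15, pandas 2.3.3, numpy 2.4.6 and matplotlib 3.10.9 were used.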

Additional observations from a re-analysis of the deposited data

Results flagged for a closer look

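The change at 6 h differed between the E2F1 and EV lines in 3866 genes, by the test of the difference itself. Among the 15 genes called in the EV line, 3 were called in both lines and also differed between them. Adgrg1, an adhesion receptor, rose in both but less in the E2F1 line: from 101 and 181 to 3410 and 3907 in the EV line (log2 4.74), against 2.86 in the E2F1 line, a difference of -1.88 (adjusted p 9.9e-05). Ddx51, an RNA helicase, rose by 0.68 and 0.29, a difference of -0.39 (adjusted p 0.0245). Sh3rf1, a scaffold of JNK signalling, rose more in the E2F1 line, by 2.25 against 1.24, a difference of 1.01 (adjusted p 0.000168).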

How the results depend on the processing

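The count of 5799 calls in the E2F1 line ran from 4341 to 4916 with a library left out, and was 1115 with at least a 2-fold change. In the EV line the 15 calls became 1 with only the groups compared, 8 to 30 with a library left out and 6 with at least a 2-fold change. The 3866 differences became 1157 with at least a 2-fold change and ran from 2964 to 3768 with a library left out. All other alternatives tried kept these 3 counts within 1.5 times. With the replicate number as a block the counts were 5936, 14 and 4002; same-numbered libraries of the E2F1 line deviated together between 0 h and 6 h (Pearson r 0.36 over genes), as did those of the EV line (0.45), while between the lines r was 0.09 at 0 h and 0.01 at 6 h, and the labels give the numbers no meaning. Of the named genes, Apaf1 changed sign to -0.075 with equal totals and -0.11 under quantile normalization, and ran from -0.019 to 0.10 with a library left out. Myc turned to -0.092 and -0.17 with these scalings and ran from -0.16 to 0.21 with a library left out, and Tubb3 ran from -0.41 to 0.031; none was called, and the cause was not tested. A call was lost in 115 of the 788 values of named genes with a library left out, and in 30 of the 1529 under other alternatives; calls were gained in 2 and 5 of these, all for Ccnd1 or Csf1r. The planned share of promoters with E2F letters was not compared, because under 80% of the genes that rose had a promoter in the table. Precision rests on 2 libraries a group, and no other depth was tried.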

Other observations

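Of 22 interferon-stimulated genes 11 were in the table, 3 called lower and 0 higher in the E2F1 line, beside 22.9% and 28.8% of all genes, so the lower share was near that of all genes; 4 were lower under either other scaling. Their median was -0.29 against 0.09 in the EV line. Stat2, which carries the interferon signal to the nucleus, went from 1934 and 2121 to 1157 and 1366 (-0.69, SE 0.11, adjusted p 4.25e-05), and differed from the EV line by -0.72 (adjusted p 0.00129). Ifi35 went from 539 and 542 to 319 and 345 (-0.70, adjusted p 0.00266). The libraries of both genes were lower at 6 h without overlap. Ddx58, the gene of the RNA sensor RIG-I, was at 1528 and 1837 against 1055 and 1318 (-0.51, adjusted p 0.00922), and lost its call without E2F1 6 h replicate 1 or 0 h replicate 2 (adjusted p 0.134 and 0.114).

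Among the neural markers Map2, which binds microtubules, was at 216 and 250 at rest and at 482 and 400 after 6 h (0.92, adjusted p 0.0149), and was not called without E2F1 6 h replicate 1 or 0 h replicate 1 (adjusted p 0.102 and 0.0863). Tubb3 was at 60 and 50 against 41 and 56 (-0.19, adjusted p 0.703).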
